A study of Mus musculus with 35 samples.

Results

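The genes described here are 9 markers of adult neurogenesis and of granule cells in the dentate gyrus: Eomes, Neurod1, Dcx, Sox4, Sox11, Igfbpl1, Prox1, Calb1 and Calb2. They were chosen by symbol from 32544 gene symbols, as known markers, with earlier results of these data known. The study injected kainic acid (KA), a glutamate receptor agonist, into the amygdala of male C57BL/6JOlaHsd mice aged 7 to 9 weeks, which starts status epilepticus and is followed by spontaneous seizures. Mice given KA then received lorazepam, and control mice received the PBS vehicle. Hippocampi were taken at 24 h or at 2 weeks, and each mouse could give an input library of total RNA and a library of RNA pulled down with an antibody against N6-methyladenosine (m6A). The comparisons used 5 KA and 3 PBS m6A libraries at 24 h, 6 KA and 5 PBS m6A libraries at 2 weeks, 3 KA and 1 PBS input libraries at 24 h, and 6 KA and 3 PBS input libraries at 2 weeks.

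New granule cells arise in the subgranular zone of the dentate gyrus throughout life. Radial glia-like stem cells give intermediate progenitors that carry Eomes (Tbr2), these give neuroblasts that carry Neurod1, Sox4, Sox11, Igfbpl1 and doublecortin (Dcx), and the maturing cells exchange calretinin (Calb2) for calbindin (Calb1) while Prox1 is kept for life. Seizures are known to disturb this sequence in rodents, and loss of calbindin from granule cells is a known feature of epileptic hippocampus. Several of the genes are not restricted to the lineage: Calb2 is also carried by mossy cells and interneurons, Calb1 by CA1 pyramidal cells and interneurons, and Prox1 by some interneurons. In RNA from whole hippocampus, fewer cells of a type and less RNA per cell cannot be told apart.

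Total counts ran from 1652933 to 34564536 in the 19 m6A libraries and from 3057578 to 12694434 in the 13 input libraries used. A further 3 input libraries at 24 h held 3171 to 34486 counts and were left out. Values are given as CPM, a gene's count per 1000000 counts of its library. The column names of the tables sort the m6A libraries into 3 sets by a leading 3, 4 or 5, and the input libraries into those with and without the prefix Input-; what these sets stand for is not given in the sources used here. Set 3 holds KA libraries alone, so KA and PBS meet within a set only in set 4 at 24 h and in set 5 at 2 weeks. The input and m6A libraries of KA mouse 8 (24 h) and the m6A library of KA mouse 6 (2 weeks) stood apart, with 16.4 to 17.5% of counts from mitochondrial genes, against 1.41 to 11.1% in the other libraries used. The defining markers of hippocampal tissue were present, and the summed level of 15 mature granule cell markers lay between 409 and 1433 CPM in every library used.

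Per kilobase of the canonical transcript, Calb1 was the highest of the 9 genes in the PBS input libraries at 2 weeks, at a median of 47.3 CPM per kb (34.7 to 48.3, n = 3). Calb2 followed at 10.4 CPM per kb (10.1 to 15.3), and Sox4 at 7.73 (7.55 to 7.74). Sox11 at 5.64, Prox1 at 5.54 and Dcx at 4.97 CPM per kb came next, and the ranges of these 3 overlapped. Neurod1 stood at 3.58 CPM per kb (3.34 to 3.97), overlapping Dcx at its lowest, 3.93. The last were Igfbpl1 at 0.216 (0.0926 to 0.227) and Eomes at 0.0602 CPM per kb (0 to 0.142), whose ranges overlapped and which rested on 0 to 4 counts a library.

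**Figure D1:**
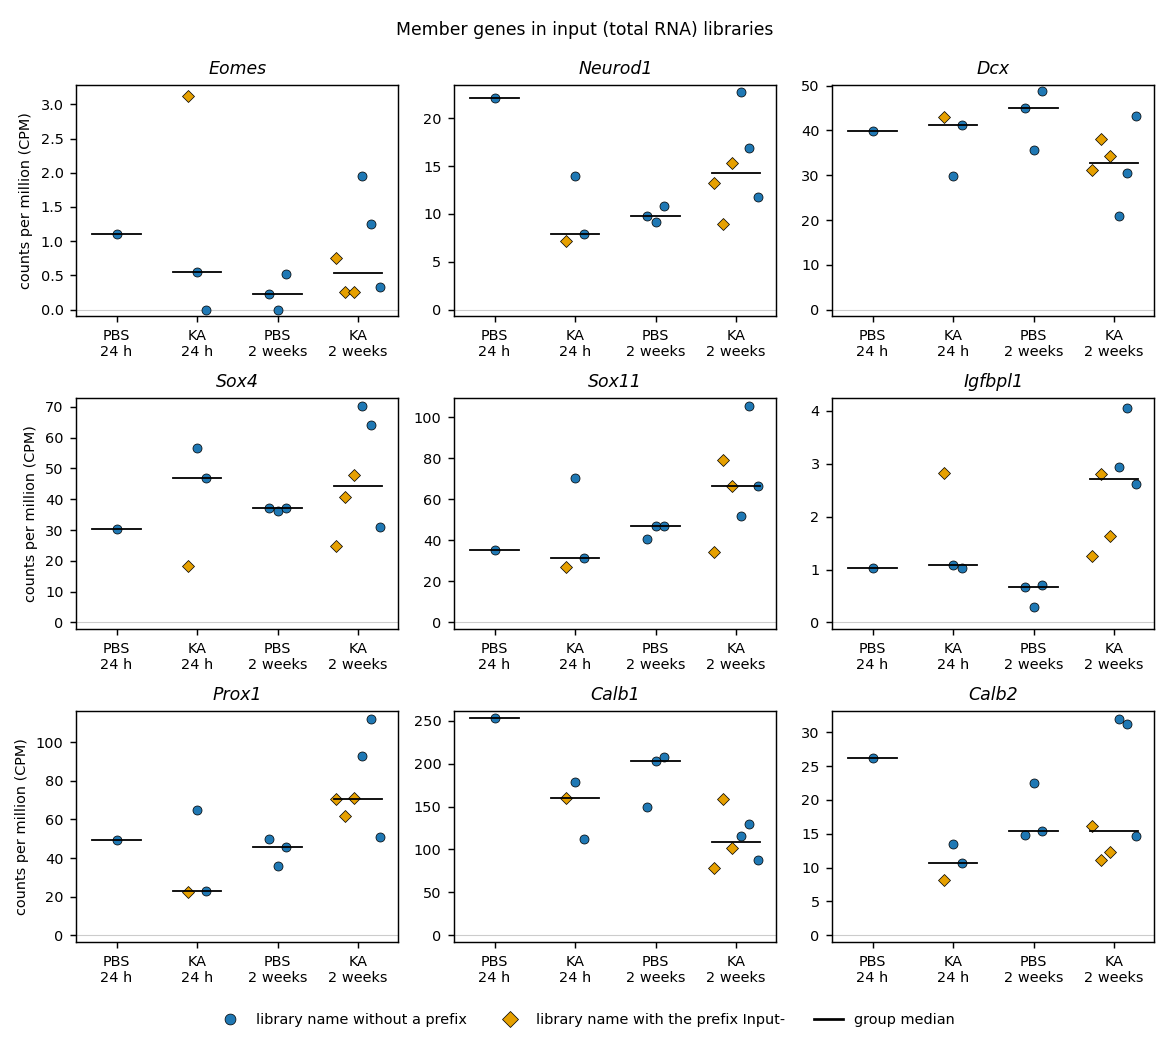
CPM of each of the 9 genes (linear vertical axes from 0) in the 13 input libraries used, by treatment and time; each point is 1 mouse, the symbol gives the form of the library name, and the line is the group median. At 2 weeks all 6 KA points of Prox1 and Igfbpl1 lie above the 3 PBS points, and 5 of 6 KA points of Calb1 lie below them.

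The total RNA at 2 weeks addressed which of these transcripts differ once the acute phase has passed. Igfbpl1 and Prox1 were higher in every KA mouse than in any PBS mouse, Calb1 was lower in 5 of 6 KA mice, and Dcx was not higher. None of these differences passed correction over all genes: edgeR's quasi-likelihood test with Benjamini-Hochberg adjustment called 0 of 8 genes of the group that passed the count filter and 0 of 13752 genes in all (0% called). At an unadjusted p under 0.05 the same test gave 4 of the 8, Igfbpl1, Prox1, Calb1 and Neurod1, against 14.1% of all genes tested. Igfbpl1 passed the count filter through its KA libraries alone, which favours a higher value after KA among the genes tested, so its place among the 4 is a description. DESeq2 called 0 of the 8 and 116 genes in all, and limma voom with sample weights called 2 of the 8, Prox1 and Calb1, and 357 genes in all (2.6%).

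Eomes, a T-box factor of intermediate progenitors, was too low in input for the test. It was read with 1 to 8 counts in the KA libraries and 0 to 3 in the PBS libraries at 2 weeks, so no difference could be seen at this depth.

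Igfbpl1, a secreted protein of the insulin-like growth factor binding family made by immature neurons, was at 0.285, 0.666 and 0.699 CPM in the PBS mice. In the KA mice it was at 1.25, 1.64, 2.62, 2.81, 2.93 and 4.06 CPM. The groups did not overlap, which held for KA above PBS in 2.64% of all genes tested. The values rested on 1 to 4 counts in PBS and 8 to 22 in KA, and only the KA libraries brought the gene past the filter, so neither the separation nor the fold change is support for its direction. KA over PBS gave a log2 fold change of 2.06 (SE 0.52, 95% interval 0.93 to 3.18, 6 KA against 3 PBS, edgeR adjusted p = 0.242). It was 2.47 (SE 0.53) with the form of the library name as a block, which draws the effect from the libraries without a prefix.

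Prox1, the homeobox factor that fixes and keeps granule cell identity, was at 35.6, 45.4 and 50.0 CPM in the PBS mice. The 6 KA mice were at 50.7, 61.5, 70.6, 70.8, 92.8 and 112 CPM, so the groups did not overlap, although the lowest KA value lay just above the highest PBS value. The log2 fold change was 0.84 (SE 0.23, 95% interval 0.34 to 1.34, edgeR adjusted p = 0.254). Under limma voom it was 0.72 (adjusted p = 0.0386), the one of these 3 methods that called it. Within the libraries whose names carry no prefix, which hold 3 KA and all 3 PBS mice, it was 1.02 (SE 0.26).

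Calb1, the calcium buffer of mature granule cells and CA1 pyramidal cells, ran the other way. The PBS mice were at 149, 203 and 208 CPM, and the KA mice at 78.5, 87.3, 102, 115, 130 and 159 CPM. KA mouse 7, at 159 CPM, was the one that reached into the PBS range, and 3.8% of all genes tested had every KA mouse below every PBS mouse. The log2 fold change was -0.73 (SE 0.20, 95% interval -1.15 to -0.31, edgeR adjusted p = 0.244), and limma voom gave -0.88 (adjusted p = 0.0281). Leaving out each of the 9 libraries in turn kept it between -0.92 and -0.61.

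Neurod1, a basic helix-loop-helix factor needed for granule cell survival and maturation, was at 9.12, 9.77 and 10.8 CPM in PBS mice and between 8.95 and 22.7 CPM in KA mice, with a median of 14.3. Only KA mouse 7, at 8.95 CPM, was not above all PBS mice. Fitted over all 9 libraries, Neurod1 gave a log2 fold change of 0.59 (SE 0.27, edgeR adjusted p = 0.350). Sox11, an SRY-box factor of neuroblasts, was at 40.9, 46.8 and 47.0 CPM in PBS and at 34.3 to 106 CPM in KA mice, with KA mouse 6 the lowest and KA mouse 42 the highest. Its log2 fold change was 0.60 (SE 0.28, edgeR adjusted p = 0.355), which was 0.41 without KA mouse 42 and 0.73 without KA mouse 6.

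Sox4, the paralog of Sox11, was at 36.2 to 37.1 CPM in PBS and 24.7 to 70.4 CPM in KA mice, a log2 fold change of 0.35 (SE 0.29, 95% interval -0.27 to 0.98). Dcx, the microtubule-associated protein of migrating neuroblasts, was at 35.6, 45.1 and 48.8 CPM in PBS and at 21.0 to 43.2 CPM in KA mice, a log2 fold change of -0.36 (SE 0.18, 95% interval -0.76 to 0.04). That interval leaves out a rise of Dcx of the size fitted for Prox1. Calb2 was at 14.9 to 22.5 CPM in PBS and 11.1 to 32.0 CPM in KA mice, a log2 fold change of 0.16 (SE 0.37, 95% interval -0.66 to 0.97). The high Calb2 values were those of KA mice 42 and 21, at 31.2 and 32.0 CPM, which were also the 2 highest KA mice for Prox1, Igfbpl1, Neurod1 and Sox4.

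Within the 3 KA and 3 PBS input libraries without a name prefix, all 3 KA values were above all PBS values for Prox1, Igfbpl1, Neurod1 and Sox11, and below them for Calb1. Of 13029 genes with a mean of at least 10 counts in these 6 libraries, 6.63% lay above in this way and 12.1% lay below. Igfbpl1, on 1 to 4 counts in PBS and 8 to 13 in KA mice, had too few counts to be among them. The KA libraries with the prefix Input- (mice 6, 7 and 9) have no PBS library beside them.

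Other lists give the setting of these values, with no gene of any list called by edgeR at 2 weeks in input. Of 15 mature granule cell genes, 11 had a log2 fold change above 0, with a median of 0.35 against 0.02 over all genes tested. Of 18 neuroblast and immature neuron genes tested, 11 were above 0 (median 0.19), and of 13 stem cell and radial glia-like progenitor genes, 11 were above 0 (median 0.47). Of 7 cell division genes that passed the filter, 5 were above 0 (median 0.07), and of 12 CA pyramidal cell genes 7 were (median 0.11). Some lists of other cell types had higher medians than the mature granule cell list. All 8 microglial genes were above 0 (median 0.65), as were 7 of 8 astrocyte genes (median 0.50). So were 9 of 10 oligodendrocyte lineage genes (median 0.37) and 5 of 6 endothelial genes (median 0.39). Several genes of the stem cell list, such as Vim, Sox9 and Notch2, are also carried by astrocytes. Markers of tissue next to the hippocampus were split: of 6 thalamic genes, 3 were above 0 (median -0.06). Their summed level was 112 to 160 CPM in the 6 KA mice and 189 to 249 CPM in the 3 PBS mice, without overlap. Among single genes tested, 3.8% had every KA mouse below every PBS mouse. No thalamic marker was at 0 in all libraries of a group. The part of such tissue in the values of Calb1, Calb2 and the other members was not tested. The 5 choroid plexus markers summed to 217 to 1614 CPM in KA and 517 to 975 CPM in PBS mice, and overlapped.

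At 24 h only PBS mouse 1 had an input library of sufficient depth, so the spread was taken from all 13 input libraries in 1 fit and the lone library was assumed to vary like the others. Calb1, Calb2 and Neurod1 lay below PBS mouse 1 in all 3 KA mice, as did 33.1% of all genes tested. Calb1 was at 112, 159 and 178 CPM against 253 CPM in PBS mouse 1. Calb2 was at 8.17, 10.8 and 13.5 CPM against 26.2 CPM. Neurod1 was at 7.16, 7.93 and 14.0 CPM against 22.1 CPM.

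The log2 fold changes at 24 h in input were -0.44 (SE 0.36) for Calb1, -0.99 (SE 0.54) for Calb2 and -0.90 (SE 0.42) for Neurod1. PBS mouse 1 had more counts than any other input library, 12694434, and its Neurod1, Calb1 and Calb2 levels were also above those of all 3 PBS mice at 2 weeks. Prox1 was split, at 64.9 CPM in KA mouse 67 and 22.4 and 23.0 CPM in the other 2, around 49.5 CPM in PBS mouse 1. Dcx (29.8 to 43.1 against 39.9 CPM) and Sox11 (27.0 to 70.2 against 35.5 CPM) spanned the PBS value. Sox4 was above it in KA mice 67 and 98 (56.6 and 46.8 against 30.5 CPM) and below it in KA mouse 8 (18.5 CPM). None of the 9 genes was called by edgeR (0 of 17644 genes in all, with 9.23% at an unadjusted p under 0.05 and 0 of the 9 members), by DESeq2 (197 genes in all) or by limma voom (1057).

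**Figure D2:**
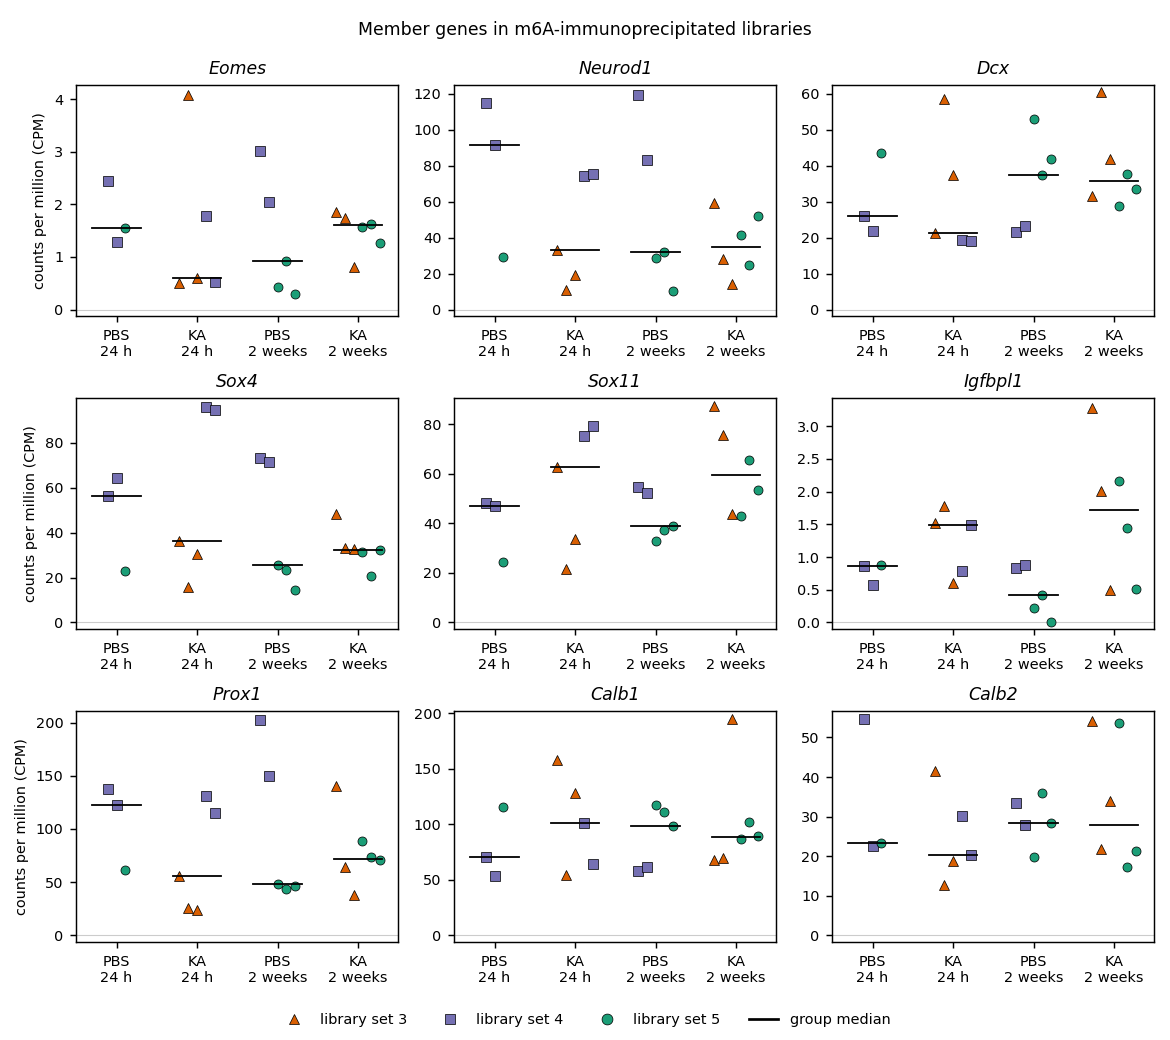
CPM of each of the 9 genes (linear vertical axes from 0) in the 19 m6A libraries, by treatment and time; each point is 1 mouse, the symbol gives the library set and the line is the group median. Squares (set 4) lie above circles (set 5) for Prox1, Neurod1, Sox4 and Sox11 among PBS mice, and below them for Dcx and Calb1.

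In the m6A libraries the levels of most of these genes differed between library sets. Among PBS mice of both times, 4 libraries are of set 4 and 4 of set 5, and 6 of the 9 genes did not overlap between the sets. Of 16190 genes with a mean of at least 10 counts in these 8 libraries, 20.2% lay higher in all set 4 libraries and 19.9% lower. Prox1 was at 123 to 202 CPM in set 4 and at 43.2 to 61.6 CPM in set 5, a ratio of medians of 3.01. Neurod1 was at 83.3 to 119 against 10.2 to 32.1 CPM (ratio 3.55), and Sox4 at 56.0 to 73.3 against 14.4 to 25.7 CPM (ratio 2.94). Sox11 was at 47.1 to 54.8 against 24.3 to 38.9 CPM (ratio 1.43).

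Dcx and Calb1 went the other way between the sets. Dcx was at 21.5 to 26.1 CPM in set 4 and 37.4 to 52.9 CPM in set 5, and Calb1 at 53.6 to 70.1 against 98.8 to 118 CPM. Their ratios of medians were both 0.527. Calb2, Eomes and Igfbpl1 overlapped. What differed between the sets was not tested. For this reason comparisons of KA and PBS for the members in m6A libraries are given over all libraries and within the set that holds both treatments. A fit with the library set as a block also draws the KA effect from that set alone. The other libraries then enter the scaling and the spread only.

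At 2 weeks the m6A libraries showed higher Igfbpl1 and Sox11 after KA, at unadjusted p-values under 0.05 only, and no call. Igfbpl1 passed the count filter mostly through its KA libraries, which favours a higher value after KA among the genes tested. Its place and its fold change here are therefore a description. Over all 6 KA and 5 PBS libraries edgeR called 0 of the 9 genes and 0 of 16157 genes in all (0% called), with 2 of the 9 at an unadjusted p under 0.05 against 5.01% of all genes. DESeq2 called 15 genes in all and limma voom 2, none of them a member. No member separated KA from PBS over all 11 libraries.

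Igfbpl1 was at 0, 0.216, 0.427, 0.826 and 0.877 CPM in the PBS mice, the last 2 being those of set 4. It was at 0.497, 0.504, 1.44, 2.01, 2.16 and 3.27 CPM in the KA mice, and KA mice 6 and 9 overlapped with PBS. The log2 fold change was 1.75 (SE 0.62, 95% interval 0.42 to 3.08, edgeR adjusted p = 0.875), and 2.47 (SE 0.85) with the library set as a block. The PBS library at 0 held 6579414 counts, so that 3 counts, the limit that 0 allows, stand for 0.456 CPM there.

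Sox11 was at 32.8, 37.5 and 38.9 CPM in PBS mice of set 5, at 52.3 and 54.8 CPM in PBS mice of set 4, and at 43.0 to 87.4 CPM in the 6 KA mice. The log2 fold change was 0.56 (SE 0.22, 95% interval 0.10 to 1.03, edgeR adjusted p = 0.875), and 0.62 (SE 0.24) with the set as a block. KA mice 42, 5 and 7, at 87.4, 75.6 and 65.5 CPM, were above every PBS mouse, and the other KA mice were not.

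Prox1 and Neurod1 changed direction with the handling of the sets. Over all libraries the log2 fold change of Prox1 was -0.25 (SE 0.42) and that of Neurod1 -0.51 (SE 0.50). With the set as a block they were 0.80 (SE 0.35, edgeR adjusted p = 1.00) and 0.81 (SE 0.49). The values with the block rest on set 5, the only set with both treatments at 2 weeks. Within set 5, Prox1 was at 71.0, 73.2 and 88.5 CPM in the 3 KA mice and at 43.2, 46.8 and 48.7 CPM in the 3 PBS mice, a log2 fold change of 0.82 (SE 0.20, edgeR adjusted p = 0.956 in a fit of these 6 libraries). Prox1, Sox11, Eomes and Igfbpl1 all lay above PBS without overlap in set 5. Of 15837 genes with a mean of at least 10 counts in these 6 libraries, 3.95% did so and 7.32% lay below. Eomes (2 to 15 counts in PBS, 20 to 26 in KA) and Igfbpl1 (0 to 7 and 8 to 36) reached that mean through the KA libraries. That favours KA above PBS, so the separation of these genes is a description.

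Eomes in set 5 was at 1.26, 1.56 and 1.63 CPM after KA and at 0.304, 0.432 and 0.916 CPM in PBS mice, on 20 to 26 and 2 to 15 counts. Its log2 fold change was 0.15 (SE 0.48) over all libraries and 1.40 (SE 0.50) with the set as a block. Neurod1 in set 5 was at 25.0, 41.7 and 52.0 CPM against 10.2, 28.9 and 32.1 CPM, and overlapped. Sox4 turned from -0.25 (SE 0.38) to 0.48 (SE 0.28) with the block, and Dcx from 0.21 (SE 0.27) to -0.35 (SE 0.26).

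Calb1 in m6A libraries was at 68.2, 69.7, 87.0, 89.7, 102 and 195 CPM in KA mice and at 58.0, 61.1, 98.8, 111 and 118 CPM in PBS mice. The highest value, 195 CPM, was that of KA mouse 6, whose m6A library held 17.5% mitochondrial counts and whose input library gave the lowest KA value of Calb1, 78.5 CPM. In log2 fold change Calb1 was at 0.31 (SE 0.33) over all libraries, at -0.07 (SE 0.23) without the m6A library of KA mouse 6, and at -0.18 (SE 0.41) with the set as a block. Calb2 overlapped throughout, at 17.3 to 54.2 CPM in KA and 19.8 to 36.0 CPM in PBS mice (log2 fold change 0.29, SE 0.32).

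**Figure D3:**
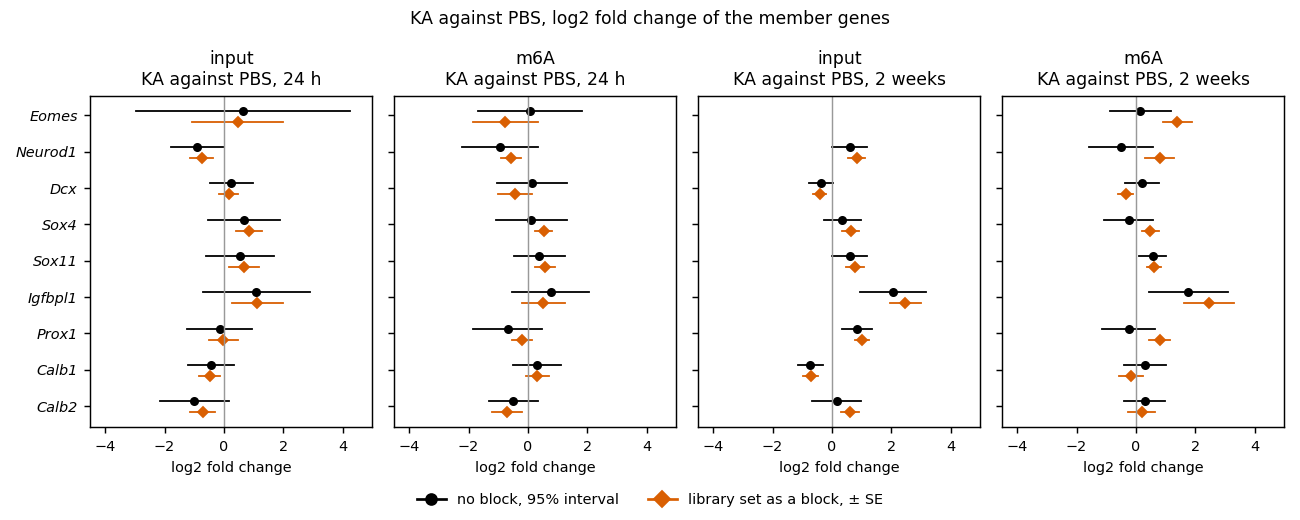
Log2 fold change of KA against PBS (horizontal axis) for each gene in input and m6A libraries at 24 h and 2 weeks; circles are the fits without a block with their 95% intervals, and diamonds are fits with the library set as a block, ± SE. Except in input at 24 h, the diamonds draw the KA effect from the only set that holds both treatments. Prox1 at 2 weeks is at 0.84 in input and at -0.25 in m6A libraries, which becomes 0.80 with the block. Eomes was not tested in input at 2 weeks.

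At 24 h no member was called between KA and PBS over all 8 m6A libraries, and 0 of the 9 were at an unadjusted p under 0.05 (edgeR, against 5.31% of all genes). The test called 1 of 16470 genes (0.00607%), DESeq2 156 and limma voom 1121, none of them a member. The log2 fold changes ran from -0.95 (SE 0.58) for Neurod1 to 0.76 (SE 0.58) for Igfbpl1. Prox1 shows how the sets shape these values, at 115 and 131 CPM in KA mice of set 4, at 24.2 to 56.1 CPM in those of set 3, at 123 and 138 CPM in PBS mice of set 4 and at 61.6 CPM in the PBS mouse of set 5.

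Within set 4, with 2 KA and 2 PBS mice, 4 of the 9 genes did not overlap. Sox11 was at 75.4 and 79.2 CPM after KA against 47.1 and 48.2 CPM in PBS mice, and Sox4 at 94.4 and 95.8 against 56.0 and 64.1 CPM. Neurod1 was lower, at 74.2 and 75.3 CPM against 91.6 and 115 CPM, and so was Dcx, at 19.0 and 19.4 CPM against 21.7 and 26.1 CPM. In these 4 libraries 35.4% of 16876 genes lay higher after KA without overlap and 16% lower. In a fit of these 4 libraries the log2 fold changes were 0.57 (SE 0.14, edgeR adjusted p = 0.0934) for Sox11, 0.54 (SE 0.17, adjusted p = 0.144) for Sox4, -0.58 (SE 0.14, adjusted p = 0.0903) for Neurod1 and -0.43 (SE 0.15, adjusted p = 0.193) for Dcx.

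Eomes was lowest in KA mice 67, 97 and 98 at 24 h, at 0.505 to 0.605 CPM on 1, 7 and 1 counts. It was highest in KA mouse 8, at 4.08 CPM on 55 counts. The m6A libraries of KA mice 67 and 98 were shallow, and their values rest on 1 count each, where 3 counts would stand for 1.52 and 1.81 CPM. At this depth 1 count does not settle whether KA mice 67 and 98 lay below the PBS mice, which were at 1.29 to 2.44 CPM. KA mouse 8 had the largest share of mitochondrial counts and also the highest Dcx and Igfbpl1 values at 24 h in m6A libraries, 58.6 and 1.78 CPM, and the lowest Sox11, Sox4, Neurod1 and Calb2 values. Without it the log2 fold change of Dcx went from 0.14 to -0.44 (SE 0.35) and that of Eomes from 0.08 to -0.86 (SE 0.52). Igfbpl1 went from 0.76 to 0.40 (SE 0.48) and Neurod1 from -0.95 to -0.72 (SE 0.51).

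The other lists in m6A libraries were fitted over all libraries of a time and not within a set. KA and library set therefore cannot be told apart in their values. At 24 h, 1 of 15 mature granule cell genes had a log2 fold change above 0, with a median of -0.50 against 0.08 over all genes. Of 12 cell division genes, 11 were above 0, with a median of 0.96. Of 20 neuroblast genes, 10 were above 0 (median -0.04). The CA pyramidal cell list stood near the granule cell list, with 3 of 12 genes above 0 (median -0.45), and all 5 choroid plexus genes were above 0 (median 1.19). No gene of these lists was called. At 2 weeks 5 of 15 mature granule cell genes were above 0 (median -0.25) and 8 of 11 cell division genes (median 0.49), and 4 of 12 CA pyramidal cell genes (median -0.29). The change of the KA effect from 24 h to 2 weeks was called by edgeR for 0 of the 9 genes and for 1 of 17440 genes (0.00573%), with 2.45% at an unadjusted p under 0.05. It was largest for Igfbpl1, at 1.00 on the log2 scale (SE 0.91), and for Calb2, at 0.79 (SE 0.51).

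The m6A and input libraries together asked which of these transcripts the antibody enriched. In the PBS mice at 2 weeks, Neurod1 was higher in m6A than in input libraries, with a log2 ratio of 2.23 (SE 0.59, edgeR adjusted p = 0.0495, 5 m6A against 3 input libraries), and Calb1 was lower, at -1.32 (SE 0.34, adjusted p = 0.0404). These were the 2 of 9 genes called, against 2.31% of 16141 genes in either direction, 1.18% higher and 1.13% lower. Both m6A libraries of set 4 came from mice with no input library here. With the mouse as a block, which compares the 3 mice that have both libraries, the values were 0.87 (SE 0.36, adjusted p = 0.207) for Neurod1 and -1.01 (SE 0.36, adjusted p = 0.155) for Calb1, and neither was called. With the mice of set 5 alone Calb1 was called, at -1.04 (SE 0.20, edgeR adjusted p = 0.0186), as were 1.75% of all genes, and Neurod1 was not. Both calls were also lost when the input library of PBS mouse 2, 3 or 4 or the m6A library of PBS mouse 50 or 78 was left out, with values of 1.75 to 2.31 for Neurod1 and -1.49 to -1.18 for Calb1. Of the 9 genes, Neurod1 had the largest ratio between sets 4 and 5.

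In the KA mice at 2 weeks, 0 of the 9 genes were called by edgeR without the block (3.08% of all genes, 2.17% higher, with 17.8% at an unadjusted p under 0.05) and 0 by DESeq2. With the mouse as a block 2 were called, Neurod1 at 1.02 (SE 0.24, adjusted p = 0.0228) and Calb2 at 0.58 (SE 0.13, adjusted p = 0.0187), in a fit that called 9.37% of all genes. Limma voom called 3, Neurod1, Eomes and Sox4, where it called 27.5% of all genes. The difference between KA and PBS mice in this ratio was called for none of the 9 genes or of all genes (edgeR, 0% called, 4.06% at an unadjusted p under 0.05, DESeq2 4 genes in all). For Calb1 it was 1.04 (SE 0.44, edgeR adjusted p = 0.807), and 0.60 (SE 0.44) with the mouse as a block. For Neurod1 it was -1.12 (SE 0.71), and 0.15 (SE 0.43) with the mouse as a block.

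**Figure D4:**
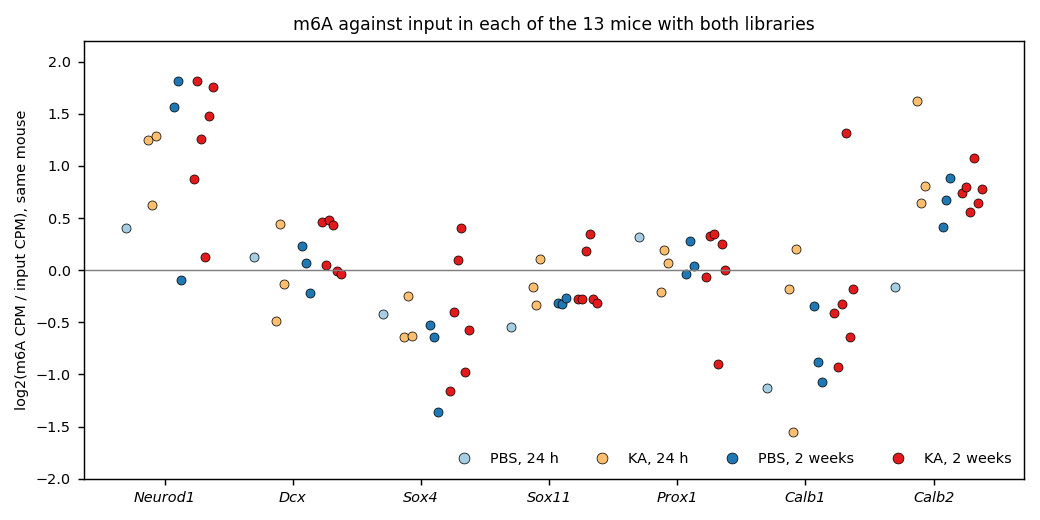
Log2 of the ratio of m6A CPM to input CPM in the same mouse (vertical axis) for the 7 genes with enough counts, in the 13 mice with both libraries; each point is 1 mouse, coloured by treatment and time. Neurod1 and Calb2 lie above 0 in 12 of 13 mice and Calb1 in 2 of 13.

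Mouse by mouse, the ratio of m6A CPM to input CPM for Neurod1 was 0.940, 2.95 and 3.52 in the PBS mice at 2 weeks and 1.33 in PBS mouse 1 at 24 h. In KA mice it was 1.09 to 3.51 at 2 weeks (median 2.59, n = 6) and 1.54, 2.38 and 2.44 at 24 h. It was above 1 in 12 of 13 mice, PBS mouse 4 being the exception. Its m6A library was the shallowest at 2 weeks and held 67 counts of Neurod1. The share of all genes above 1 in as many mice was not computed, for this or the other members. Calb2 was also above 1 in 12 of 13 mice, with a median of 1.67 and PBS mouse 1 at 0.892.

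Calb1 lay below 1 in 11 of 13 mice, with a median ratio of 0.755. The 2 above 1 were KA mouse 98 at 1.15 and KA mouse 6 at 2.49, the latter with the m6A library that stood apart. Sox4 was also above 1 in 2 of 13 mice, with a median of 0.674, and Sox11 in 3 of 13, with a median of 0.828. Prox1 and Dcx lay near 1, with medians of 1.05 in each case and ranges of 0.537 to 1.27 and 0.711 to 1.40.

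The m6A mark is placed mostly at adenosines in a short consensus, of which GGACT is the best known form. The coding sequence of the canonical transcript (GENCODE, GRCm39) was searched for GGACT on the sense strand, in each of the 9 genes and in all 21770 canonical coding transcripts, 72.0% of which hold at least 1. Neurod1 holds 3 in 1071 coding bases, a density of 2.80 per kb that 7.89% of transcripts reach or pass. Of transcripts with a coding length within 10% of its own, 14.6% hold at least as many. Calb1 and Calb2 hold none, where 60.6% and 62.5% of transcripts with a coding length within 10% of theirs hold at least 1. The windows of Neurod1, the member called higher in m6A than in input in PBS mice, and of Sox11, which holds as many but lay lower in m6A than in input in 10 of 13 mice, are shown with the motif in capitals and 10 bases on each side, named by the position of its first base in the coding sequence.
Neurod1, base 150: atgcagaggaGGACTctctgagaaa
Neurod1, base 578: ctcaaccctcGGACTttcttgcctg
Neurod1, base 673: ccagtcccctGGACTgcccagcccg
Sox11, base 117: agagcgacccGGACTggtgcaagac
Sox11, base 522: cgcagccgggGGACTgcgccgcggg
Sox11, base 1143: tgatcgcgggGGACTggctggaggc

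Each of these 6 windows lies within 1 coding exon. In the build of the deposited tables (mm10), Neurod1 lies on chromosome 2 from 79452637 to 79456636 and Sox11 on chromosome 12 from 27334268 to 27342718 by RefSeq. Eomes holds 4 such motifs, Prox1 and Sox4 3 each, Dcx 2 and Igfbpl1 1. The count of motifs did not order the genes by their ratio of m6A to input, since Calb2, with none, was above 1 in as many mice as Neurod1. A match describes the letters of the window and not a methylated site, and the 3' untranslated regions were not searched.

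The genes whose profiles over the 19 m6A libraries were most like those of the members were found by the root mean square difference of standardised log2 CPM, in SD units, among 17439 genes. For Prox1 they were Maml2, itself a granule cell marker of the list used here, at 0.31, then Nr3c2 and Lhfpl2. For Neurod1 they were Gdf11 (0.32), Kbtbd11 and Cspg5. Dcx was nearest to Lypla1 (0.34), Hace1 and Elmod2, and Calb1 to Appbp2 (0.43), Cct8 and Atp6v1c1. Sox11 (Creld2, 0.55), Calb2 (Gpc4, 0.61), Eomes (Cpb1, 0.48) and Igfbpl1 (Itga10, 0.49) had no gene as near. These likenesses run over libraries that share their set, depth and treatment, and are given as a description.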

How the data were processed

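The authors deposited raw counts of reads per gene symbol for each sequencing lane, from libraries made with the SMARTer Stranded Total RNA-Seq Kit v2 (10 ng of m6A RNA or 50 ng of input RNA) and placed on mm10 per the labels. No source used here names the aligner or counter or says whether counting used strand, so reads of overlapping or antisense genes cannot be told apart. The 4 lanes of a library were summed, which gave 35 libraries from 140 columns, and 8 further columns were not used. Columns were matched to samples by the treatment, time and mouse number in their names, and a leading number was read as m6A and no prefix as input, which is an inference. Every table row named a gene.

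Input libraries under 100000 counts were left out. Counts were tested in R 4.3.3 with edgeR 4.0.16 (TMM, filterByExpr, robust quasi-likelihood F test), with Benjamini-Hochberg adjustment over all genes tested and a threshold of 0.05. DESeq2 1.42.0, limma 3.58.1 voom with sample weights, scaling by library size, other count filters, each library left out in turn, the library set as a block and the mouse as a block were alternatives. Within-set fits were added after the data were seen. The test code was tested on simulated data. CPM is a gene's count per 1000000 counts of its library. Limits for a count of 0 used 3 counts and cover counting error only. P-values measure the spread between the libraries of a group, each from 1 mouse per the labels.

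The m6A and input libraries are paired by mouse through the labels. The correlation of a mouse's deviations from its group means between the 2 assays was 0.13 to 0.37 in KA mice at 2 weeks and -0.02, -0.01 and 0.12 in PBS mice. It was highest with the mouse's own input for KA mice 5, 7, 9, 21 and 42 and for PBS mouse 3. For KA mouse 6 it was 0.18, against 0.23 with the input of KA mouse 7. PBS mice 2 and 4 also had higher values with another mouse's input, at 0.025 and 0.033. For KA mouse 6 and PBS mice 2 and 4 the pairing rests on the labels alone. The text names the 9 members, up to 3 list genes past the threshold per list and comparison (there were none for KA against PBS), and the genes with the nearest profile to a member (up to 3), which for Sox4 are not reported here. The members and the marker lists were chosen with earlier results of these data known.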

Additional observations from a re-analysis of the deposited data

Results flagged for a closer look

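Of 36 sets of values (9 genes in 4 groups of 5 or 6 libraries), 1 held a library far from the rest. Calb1 in the m6A library of KA mouse 6 at 2 weeks was at 195 CPM, and the other 5 KA libraries lay between 68.2 and 102 CPM, so that its gap to the nearest of them was 0.733 of the whole range. By chance about 1 in 20 such sets would hold one. That library also had 17.5% mitochondrial counts and 27003 genes with a count. Without it the log2 fold change of Calb1 for KA against PBS at 2 weeks in m6A libraries was -0.07 (SE 0.23), against 0.31 (SE 0.33) with it.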

How the results depend on the processing

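In input libraries at 2 weeks, 0 members were called by edgeR and 2 by voom. For m6A over input in PBS mice the 2 calls became 0 without a filter on low counts and 1 (Calb1) with the mice of set 5 alone, and leaving out each library gave 0 to 2. For m6A over input in KA mice the count went from 0 to 3 with voom (Neurod1, Eomes and Sox4, the last lower), which called 27.5% of all genes there. The mouse as a replicate block, which pairs the libraries, took the count from 2 to 0 in PBS mice and from 0 to 2 in KA mice, and it changed no other call. In the other 5 comparisons no member was called under any alternative run. Without the input library of PBS mouse 1, input at 24 h could not be fitted. For KA against PBS in m6A libraries, 19 of 170 alternative values at 2 weeks and 17 of 144 at 24 h had the opposite sign to the value over all libraries. The cause was not tested. Low counts limit Eomes and Igfbpl1, which stood at 0 to 31 counts in the input libraries used.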
